A study of Mus musculus with 91 samples.

Results

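The genes described here are 10 calcium-binding genes measured in single layer 5 pyramidal neurons (L5 Pyrs) of the mouse primary visual cortex. They are *Necab1*, *Necab2* and *Necab3*, the buffers *Calb1*, *Calb2* and *Pvalb*, and the sensors *Hpca*, *Hpcal1*, *Hpcal4* and *Ncald*, 10 of the 34745 rows of the deposited tables. *Necab1* had been selected on these same counts, which lay mostly in neurons of 1 type, so its difference between the types is given as a description without a test. The other 9 genes were taken by family and function.

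Each neuron was recorded in a brain slice with a patch pipette and then drawn into it together with its nucleus, and its mRNA was amplified with a Smart-seq2-based kit and sequenced (Patch-seq). The 47 Pyr←LP neurons are of the type driven by the lateral posterior thalamic nucleus (LP), and the 44 Pyr←ORBvl neurons of the type driven by the ventrolateral orbital cortex (ORBvl). All 91 came from mice labelled wild type, which were adults of both sexes, and no agent or allele differed between the types. The type of these neurons was predicted by a classifier from the slope of the hyperpolarization-activated current, and the inputs themselves were not stimulated for the label.

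Calcium enters pyramidal neurons with each action potential and through synaptic receptors, and proteins with EF-hand motifs bind it. An EF hand is a helix, a loop and a helix, and side chains at fixed positions of the loop hold the ion. Buffers such as calbindin, calretinin and parvalbumin mainly take up calcium and shape its time course, and are widely used to mark classes of cortical interneurons. Sensors of the visinin-like group, hippocalcin and its relatives, change shape on binding and move to membranes. NECAB proteins pair an N-terminal EF-hand region with a C-terminal monooxygenase-like domain and are found in restricted sets of neurons.

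The EF-hand loops show how the families differ in the part of the protein that holds calcium. The PROSITE EF-hand signature was searched in the translated coding sequence of the principal GENCODE M21 transcript of each gene (GRCm38). It was found once in *Necab1* and *Necab3*, in 2 places in *Necab2* and *Pvalb*, in 3 in each of *Hpca*, *Hpcal1*, *Hpcal4* and *Ncald*, in 4 in *Calb1* and in 5 in *Calb2*. Of 21760 coding genes scanned, 0.988% held the signature at all. The 36 coding bases of the first loop are printed for the NECAB genes, for 1 buffer of each kind and for the hippocalcin relatives, with capitals at the codons of loop residues 1, 3, 5 and 12, whose side chains face the ion.
Necab1: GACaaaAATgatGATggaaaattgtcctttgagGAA
Necab2: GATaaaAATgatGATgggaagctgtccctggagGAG
Necab3: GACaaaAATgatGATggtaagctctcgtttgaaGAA
Calb1: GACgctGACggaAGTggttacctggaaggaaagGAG
Calb2: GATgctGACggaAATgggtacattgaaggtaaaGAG
Pvalb: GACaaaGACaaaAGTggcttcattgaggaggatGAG
Hpca: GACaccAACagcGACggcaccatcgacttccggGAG
Hpcal1: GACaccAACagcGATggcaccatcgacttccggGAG
Hpcal4: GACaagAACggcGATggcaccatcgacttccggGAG
Ncald: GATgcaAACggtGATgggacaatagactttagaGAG
The *Necab1* loop shared 30 of 36 bases with that of *Necab3* and 29 with that of *Necab2*. The *Hpca* and *Hpcal1* loops differed at 1 base, with 35 of 36 shared. Over the whole coding sequence of 579 bases, *Hpca* and *Hpcal1* were identical at 86.0% of bases, and *Hpca* and *Ncald* at 78.6%, with a longest shared run of 38 bases for the first pair and 46 for the second. Reads aligned at 1 place only were counted, and whether any were split between these relatives was not tested.

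In the files' build, GRCm38, *Necab1* lies on the minus strand of chr4:14952245-15149794, *Calb1* on the plus strand of chr4:15881264-15908064, *Hpcal4* on the plus strand of chr4:123183227-123194701 and *Hpca* on the minus strand of chr4:129111570-129122036. *Necab2* is at chr8:119446719-119472640, *Calb2* at chr8:110137502-110168210, *Necab3* at chr2:154544399-154558890, *Hpcal1* at chr12:17690856-17791933, *Ncald* at chr15:37366175-37792570 and *Pvalb* at chr15:78191114-78206400. The loop of *Necab1* is split over exons 2 and 3 of 13, and so are the loop of *Necab3* and the first loop of *Necab2*.

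Total counts were between 2410 and 1948982 per neuron, and between 1015 and 11013 genes had a count. Sums over the pan-neuronal markers were above 0 in every neuron, and *Snap25* had counts in all 91. *Slc17a7*, the vesicular glutamate transporter of excitatory neurons, had counts in 35 of 47 Pyr←LP and 36 of 44 Pyr←ORBvl neurons. *Slc32a1*, the vesicular GABA transporter, had counts in 1 and 2 neurons, whereas the oligodendrocyte gene *Mbp* had counts in 45 and 43, and *Mog*, which defines that cell type, in 0 and 1. The exclusion rule of the study's methods, applied to the counts (at least 500 counts, and at most 7 for the sum of log2(count + 1) over *Slc32a1*, *Gad1* and *Gad2*), left 83 neurons, 44 Pyr←LP and 39 Pyr←ORBvl. No neuron fell under the minimum of counts, so the GABAergic limit alone removed neurons. The set kept by the study's authors differs in size and was not rebuilt here. Pyr←ORBvl neurons 5 and 11 had nearly the same counts (Pearson r 0.993 on the log2 scale, against 0.711 for the next closest pair), and the rule left out both. Whether they are separate neurons was not settled, and they count as 2 in values over all 91. Both held counts of *Hpcal4* (56 and 89) and *Ncald* (380 and 355) and of none of the other 8 genes. Counted once, they leave *Hpcal4* detected in 26 of 43 Pyr←ORBvl neurons (60.5%) and *Ncald* in 29 of 43 (67.4%). Levels are given for all 91 neurons, and tests were made on the 83.

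*Necab1*, the first of the neuronal calcium-binding NECAB genes, had counts in 25 of 47 Pyr←LP neurons (53.2%, 95% Wilson interval 39.2 to 66.7) and in 3 of 44 Pyr←ORBvl neurons (6.82%, 2.35 to 18.2). Its level in counts per 1000000 counts of a neuron (CPM) ran from 0 over a median of 1.47 to 1593 in Pyr←LP neurons, and from 0 over a median of 0 to 368 in Pyr←ORBvl neurons. The ranges overlap, since 22 Pyr←LP neurons had no count. The median total count was 600153 in the neurons of both types with *Necab1* and 355402 in those without it, so a neuron without a count is not read as one that lacks the gene. Among the Pyr←LP neurons with a count the median was 163.5 CPM, and 4 of them had 1 to 3 counts. The mean was 180.2 CPM ± 334 (SD, n = 47) in Pyr←LP neurons and 13.7 ± 64.1 (SD, n = 44) in Pyr←ORBvl neurons.

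The 3 Pyr←ORBvl neurons with *Necab1* were number 29 with 66 counts, number 26 with 22 and number 15 with 9. Numbers 26 and 29 also exceeded the GABAergic limit. Among the 83 neurons, *Necab1* was therefore detected in 23 of 44 Pyr←LP neurons and in 1 of 39 Pyr←ORBvl neurons, with means of 181 CPM ± 343 and 0.366 ± 2.29 (SD). Neuron 26 held counts of 9 of the 10 genes.

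**Figure D1:**
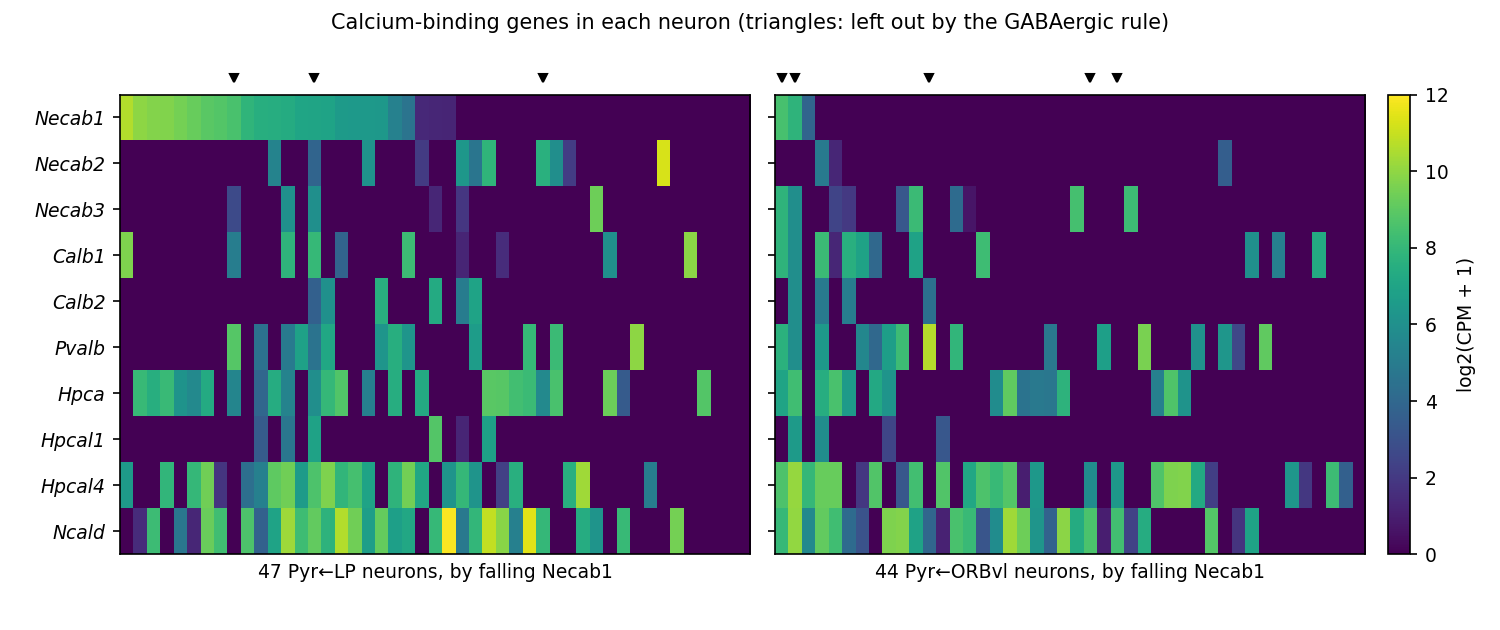
Heat map of the level of each calcium-binding gene (rows) in each neuron (columns) as log2(CPM + 1), with Pyr←LP neurons left and Pyr←ORBvl neurons right, ordered by falling *Necab1*, and triangles on the 8 neurons outside the 83. *Necab1* fills 25 of 47 columns on the left and 3 of 44 on the right, while *Hpcal4* and *Ncald* are spread over both sides.

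The names of the neurons start with a recording prefix, which the labels do not explain and which was treated as a batch. *Necab1* had counts in Pyr←LP neurons of 14 of the 16 prefixes that held that type, and in Pyr←ORBvl neurons of 2 of 15. Of the 14 prefixes with both types among the 83 neurons, the mean CPM of *Necab1* was higher in Pyr←LP neurons in 12 and in Pyr←ORBvl neurons in 0, and 2 held no count. With all 91 neurons these numbers were 11, 1 and 2. With each prefix left out in turn, *Necab1* was detected in 50.0% to 55.3% of Pyr←LP neurons and in 0% to 2.94% of Pyr←ORBvl neurons of that set.

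*Gm11837* is an antisense gene on the plus strand (chr4:14929908-14953030) whose end overlaps the end of *Necab1* by 786 bases. In GENCODE M21, 410 bases of the overlap are exonic in both genes, and 0 of these are coding in *Necab1*, so the shared stretch is its 3′ UTR. *Gm11837* had counts in 13 of 47 Pyr←LP neurons and 1 of 44 Pyr←ORBvl neurons, and all 14 of these neurons also had *Necab1*. The median *Necab1* count was 275.5 in neurons with both and 22.5 in the other *Necab1* neurons, and the median ratio was 0.102 *Gm11837* counts per *Necab1* count (range 0.0145 to 0.786). The amplification kit does not mark strand, so reads of the shared stretch carry no sign of the gene they came from. How the counting treated such reads is not stated, and it was made on RefSeq genes. The *Gm11837* values are therefore not taken as an independent measurement beside those of *Necab1*.

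**Figure D2:**
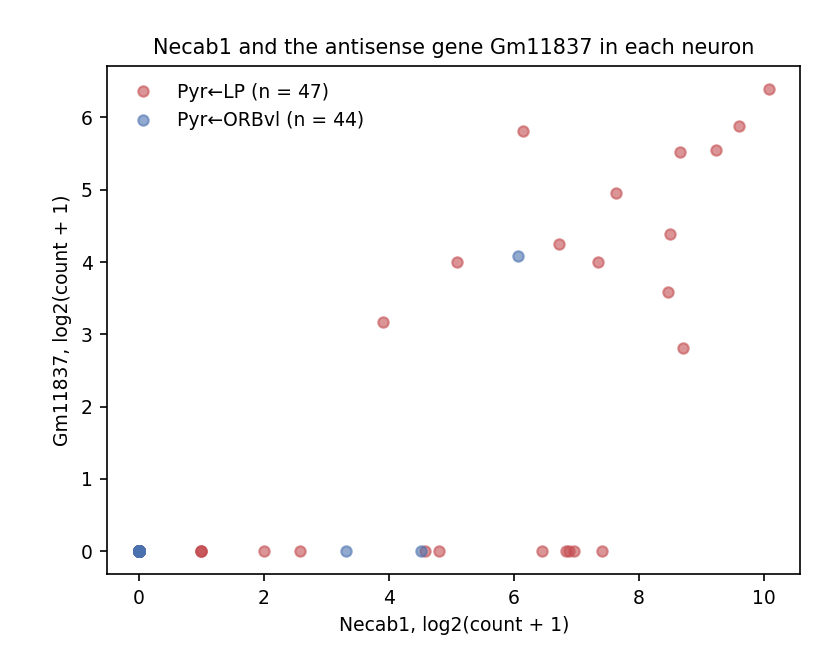
Counts of *Gm11837* (vertical axis, log2(count + 1)) against counts of *Necab1* (horizontal axis, log2(count + 1)), with 1 point per neuron for 47 Pyr←LP and 44 Pyr←ORBvl neurons. All 14 neurons with *Gm11837* lie to the right of 0 on the *Necab1* axis, and 1 of them is a Pyr←ORBvl neuron.

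The genes most like *Necab1* over the 91 neurons, by Spearman correlation of log2(CPM + 1) among 9590 genes with counts in at least 10 neurons, were *Gm11837* (rho 0.74), *Pamr1* (0.50), *Fxyd7* (0.49), *Slc30a3* (0.47) and *Gna11* (0.47). *Fxyd7* encodes a regulator of the sodium pump, *Slc30a3* the transporter that fills synaptic vesicles with zinc, and *Gna11* a G protein alpha subunit. These neurons share libraries of very unequal depth, and rho is given as a description. Within the 47 Pyr←LP neurons alone, rho was 0.35 for *Pamr1*, 0.35 for *Fxyd7*, 0.36 for *Slc30a3* and 0.58 for *Gna11*. The genes with the highest rho within these 47 neurons, named after their values were seen, were *Gm11837* (0.76), *Tubb4b* (0.64), *Pfkp* (0.62), *Lrpap1* (0.60) and *Azi2* (0.59). Over the 91 neurons, rho of the other calcium-binding genes with *Necab1* was 0.27 for *Hpcal4*, 0.24 for *Hpca*, 0.21 for *Ncald* and between -0.05 and 0.13 for the others. Within the Pyr←LP neurons *Hpcal4* had the same rho as *Pamr1*, 0.35. Of the other NECAB genes, *Necab2* was detected in 4 of the 28 *Necab1* neurons, all of them Pyr←LP, and *Necab3* in 6.

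*Necab2*, best known from striatal and hippocampal neurons where it binds to membrane receptors, had counts in 11 of 47 Pyr←LP neurons (23.4%, Wilson 13.6 to 37.2) and 3 of 44 Pyr←ORBvl neurons (6.82%, 2.35 to 18.2). Its median was 0 CPM in both types, and its highest value was 2492 CPM in Pyr←LP neurons and 29.4 in Pyr←ORBvl neurons. That highest value, from Pyr←LP neuron 13 with 1198 counts, made up 77.7% of the summed CPM of *Necab2* over its type, so the mean describes 1 neuron. *Necab3*, which binds to an amyloid precursor protein adaptor, had counts in 6 of 47 Pyr←LP neurons (12.8%, 5.98 to 25.2) and 10 of 44 Pyr←ORBvl neurons (22.7%, 12.8 to 36.99), with a median of 0 in both and highest values of 647 and 353 CPM. The 647 CPM came from Pyr←LP neuron 40, which held 82.5% of the summed CPM of *Necab3* in its type. The types overlapped for both genes.

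The filter of the tests, at least 5 counts in at least 10 of the 83 neurons, was passed by *Necab1*, *Calb1*, *Pvalb*, *Hpca*, *Hpcal4* and *Ncald*. It was missed by *Necab2*, *Necab3*, *Calb2* and *Hpcal1*, which therefore have no value in the edgeR test named next. Calls of edgeR's quasi-likelihood test needed a fold change of more than 2 and an adjusted p below 0.05, and 170 of 7542 genes met both (2.25%), 104 of them higher in Pyr←LP neurons and 66 in Pyr←ORBvl neurons (58 and 74 with RLE size factors). Of the 5 genes tested besides *Necab1*, 0 were called and 0 had an unadjusted p under 0.05, against 10.2% of all genes tested. DESeq2 called 0.570% of the same genes and also 0 of the 5. Fisher's exact test (two-sided) of the neurons with at least 1 count called 0.212% of genes and 0 of the 5, with 0 at an unadjusted p under 0.05, against 8.41% of all genes tested. Neurons and not mice were the replicates, since the labels name no mouse for a neuron, so these p-values measure the spread between neurons only.

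*Calb1* (calbindin), a fast buffer that marks upper-layer pyramidal cells and some interneurons, had counts in 10 of 47 Pyr←LP neurons (21.3%, Wilson 11.99 to 34.9) and 12 of 44 Pyr←ORBvl neurons (27.3%, 16.3 to 41.8). Its level ran from 0 over a median of 0 to 967 CPM in Pyr←LP neurons and to 305 CPM in Pyr←ORBvl neurons, and the types overlapped. Its log2 fold change, Pyr←ORBvl minus Pyr←LP, was -0.34 with a standard error of 0.96 (adjusted p = 0.98, edgeR), with an interval from -2.23 to 1.55. The direction turned with the recording prefix as a block (1.18 ± 1.44, SE).

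*Calb2* (calretinin), a buffer of certain interneurons, was the least often detected gene together with *Hpcal1*. It had counts in 6 of 47 Pyr←LP neurons (12.8%, 5.98 to 25.2), all with 5 counts or more, and in 4 of 44 Pyr←ORBvl neurons (9.09%, 3.59 to 21.2). Its highest values were 188 and 60.7 CPM, with a median of 0 in both types. The second came from Pyr←ORBvl neuron 26, outside the 83, and the highest among the 39 was 33.2 CPM.

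*Pvalb* (parvalbumin), a buffer with a slower onset that defines a large class of cortical interneurons, had counts in 13 of 47 Pyr←LP neurons (27.7%, 16.9 to 41.8) and 16 of 44 Pyr←ORBvl neurons (36.4%, 23.8 to 51.1). Values ran from 0 over a median of 0 to 990 CPM in Pyr←LP neurons and to 1612 CPM in Pyr←ORBvl neurons. The highest came from Pyr←ORBvl neuron 3, which is outside the 83, and the highest among the 39 was 778 CPM. The log2 fold change was -0.05 with a standard error of 0.93 (adjusted p = 0.996, edgeR; interval -1.88 to 1.78), and DESeq2 gave 1.15 ± 1.25 (SE), the opposite direction. Among the 83 neurons the mean was higher in Pyr←LP neurons in 3 prefixes and in Pyr←ORBvl neurons in 8. The other 3 held no count, and these numbers were the same with all 91 neurons.

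Of the 29 neurons with *Pvalb*, 15 (51.7%) also had a count of *Slc32a1*, *Gad1* or *Gad2*, the genes of GABA synthesis and release, whereas 10 of the 62 neurons without *Pvalb* (16.1%) did. The corresponding shares were 50.0% and 24.7% for *Calb2*, 36.4% and 24.6% for *Calb1*, and 32.1% and 25.4% for *Necab1*. *Ncald* showed 35.5% against 10.3%, and *Hpcal1* 60.0% against 23.5%. All 10 genes had the higher share in the neurons that held them, and the median number of detected genes was higher in neurons with the gene than without it for every gene but *Necab2*. The median total count did not move the same way throughout, being lower in neurons with *Pvalb* (273304 against 490856), *Calb1* (352026 against 423999) and *Hpca* (300972 against 469282). Such counts were held by 12 of 47 Pyr←LP and 13 of 44 Pyr←ORBvl neurons. Of the other GABAergic markers listed, *Sst* had counts in 7 Pyr←LP and 11 Pyr←ORBvl neurons, *Vip* in 2 and 2, and *Lamp5* in 17 and 39. The sum of log2(CPM + 1) over all 6 markers ran from 0 over a median of 2.20 to 34.55 in Pyr←LP neurons and from 0 over a median of 10.25 to 33.65 in Pyr←ORBvl neurons, with 20 and 2 neurons at 0. *Gad1* had counts in 9 and 11 neurons and *Gad2* in 6 and 6, so *Lamp5* had the widest gap in detection of the 6 markers. The part of these markers in the *Pvalb* values was not tested.

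In the 8 neurons that the GABAergic rule left out, *Pvalb* had counts in 5, with a median of 41.9 CPM against 0 CPM in the 83 kept. Their mean, 295 CPM against 56.4 CPM in the 83, rested on Pyr←ORBvl neuron 3 at 1612 CPM and was 106 CPM over the other 7. *Necab1*, *Necab3* and *Calb1* each had counts in 4 of these 8 neurons, and *Ncald* in 7. These 8 include the similar Pyr←ORBvl neurons 5 and 11, counted separately in all these values. Both held *Ncald*, and neither held *Pvalb*, *Necab1*, *Necab3* or *Calb1*.

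**Figure D3:**
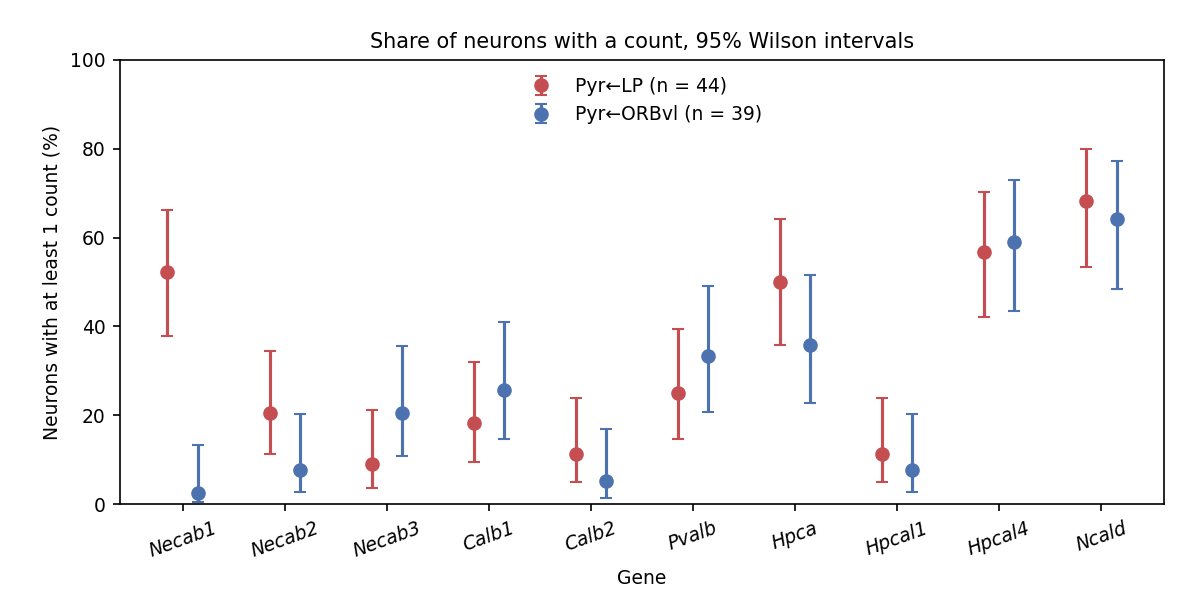
Share of neurons with at least 1 count (vertical axis, %) for each gene (horizontal axis), as points with 95% Wilson intervals, in the 44 Pyr←LP and 39 Pyr←ORBvl neurons of the tested set. The gene chosen for its detection, *Necab1*, lies at 52.3% and 2.56%, and the intervals of the other 9 genes overlap between the types.

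*Hpca* (hippocalcin), a sensor linked to the slow afterhyperpolarization and to synaptic depression, had counts in 25 of 47 Pyr←LP neurons (53.2%, 39.2 to 66.7) and 16 of 44 Pyr←ORBvl neurons (36.4%, 23.8 to 51.1). Its level ran from 0 over a median of 14.4 to 629 CPM in Pyr←LP neurons and from 0 over a median of 0 to 537 CPM in Pyr←ORBvl neurons, so the ranges overlapped throughout. Among the 83 the medians were 4.98 and 0 CPM. The log2 fold change was -1.10 with a standard error of 0.87 (adjusted p = 0.838, edgeR; interval -2.81 to 0.62). Among the 83 neurons the mean was higher in Pyr←LP neurons in 9 prefixes and in Pyr←ORBvl neurons in 2, and 3 held no count, against 10, 1 and 3 with all 91. At a minimum of 5 counts for detection, *Hpca* was in 47.7% of 44 and 25.6% of 39 neurons, with p = 0.0439 (Fisher's exact test) and an adjusted p of 0.608.

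*Ncald* (neurocalcin delta), a close relative of *Hpca* that binds membranes on calcium, was the most often detected of the 10, in 32 of 47 Pyr←LP neurons (68.1%, 53.8 to 79.6) and 30 of 44 Pyr←ORBvl neurons (68.2%, 53.4 to 80.0). Its CPM ran from 0 over a median of 107 to 3861 in Pyr←LP neurons and from 0 over a median of 15.8 to 1262 in Pyr←ORBvl neurons. Among the 83 the medians were 105 and 8.03 CPM. The shares of all 91 neurons were close at 1 count, but 3 Pyr←LP and 7 Pyr←ORBvl neurons held only 1 to 3 counts. Among the 83 neurons *Ncald* was in 61.4% and 46.2% at a minimum of 5 counts, and in 65.7% and 56.7% of those that could be thinned to 100000 counts. The log2 fold change was -0.93 with a standard error of 0.70 (adjusted p = 0.810, edgeR; interval -2.30 to 0.45). With the recording prefix as a block it was -1.82 ± 0.90 (SE), at an unadjusted p of 0.0457 and an adjusted p of 0.398 in the same test. In 11 of 14 prefixes the mean was higher in Pyr←LP neurons and in 3 in Pyr←ORBvl neurons, both among the 83 neurons and with all 91.

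*Hpcal4*, a visinin-like sensor known to act on calcium channels, had counts in 26 of 47 Pyr←LP neurons (55.3%, 41.2 to 68.6) and 27 of 44 Pyr←ORBvl neurons (61.4%, 46.6 to 74.3). Its CPM ran from 0 over a median of 20.1 to 1265 in Pyr←LP neurons and from 0 over a median of 10.1 to 1083 in Pyr←ORBvl neurons. Among the 83 the medians were 26.6 and 3.65 CPM, and the highest value of Pyr←ORBvl neurons was 841 CPM, since the 1083 came from neuron 26. The log2 fold change was -0.14 with a standard error of 0.76 (adjusted p = 0.991, edgeR; interval -1.63 to 1.34), and among the 83 neurons 6 prefixes were higher in each type, whereas with all 91 neurons 5 were higher in Pyr←LP and 8 in Pyr←ORBvl neurons. *Hpcal1*, another sensor of this group, had counts in 6 of 47 Pyr←LP neurons and 4 of 44 Pyr←ORBvl neurons, with a median of 0 in both and highest values of 444 and 91.1 CPM. The second again came from neuron 26, and the highest among the 39 was 58.7 CPM. Pyr←LP neuron 19 alone held 62.3% of the summed CPM of *Hpcal1* in its type.

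**Figure D4:**
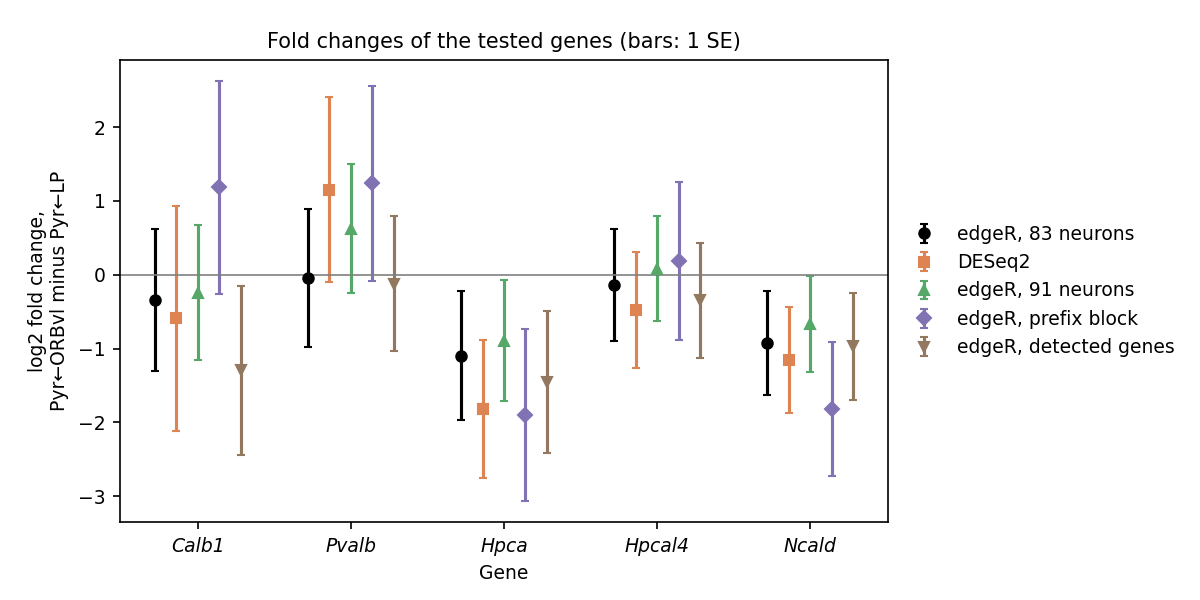
Log2 fold change (vertical axis, Pyr←ORBvl minus Pyr←LP) with 1 standard error for the 5 tested genes other than *Necab1* (horizontal axis), in edgeR on the 83 neurons and in 4 other analyses. *Hpca* and *Ncald* lie below 0 in all 5 analyses, whereas *Calb1*, *Pvalb* and *Hpcal4* lie on both sides of 0.

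Without a filter on low counts, edgeR fitted all 10 genes and, of the 9 other than *Necab1*, called 3, each higher in Pyr←LP neurons: *Necab2* (log2 fold change -6.10 ± 1.20, SE), *Calb2* (-2.68 ± 1.02) and *Hpcal1* (-2.82 ± 1.03). That analysis called 27.3% of 18100 genes, and 12.8% in the direction of Pyr←LP, and 3 of 9 is not read here as a result about these genes. Fisher's exact test over the same 18100 genes called 0 of these 9, with an unadjusted p of 0.125 for *Necab2*, 0.439 for *Calb2* and 0.717 for *Hpcal1*. In the 83 neurons these genes had counts in 9, 5 and 5 Pyr←LP neurons against 3, 2 and 3 Pyr←ORBvl neurons.

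Levels were compared between genes only per length, as log2(FPKM + 1). The deposited FPKM equalled the CPM divided by a fixed length per gene in kilobases, from 1430 bases for *Calb2* and 6611 for *Necab1* to 14294 for *Ncald*, so they hold the same reads as the counts. In Pyr←LP neurons the order by mean level was *Ncald* (2.85 ± 2.59, SD, n = 47), *Hpcal4* (2.51), *Hpca* (2.499), *Necab1* (2.43), *Pvalb* (1.70), *Necab2* (1.06), *Calb1* (0.86), *Calb2* (0.72), *Hpcal1* (0.61) and *Necab3* (0.39). In Pyr←ORBvl neurons it was *Hpcal4* (2.68 ± 2.77, SD, n = 44), *Ncald* (2.27), *Pvalb* (2.20), *Hpca* (1.58), *Calb1* (1.11), *Necab3* (0.82), *Calb2* (0.42), *Hpcal1* (0.36), *Necab1* (0.29) and *Necab2* (0.15). No neighbours in either order differed by more than 2 standard errors of their paired difference, while 24 of 45 pairs of genes in Pyr←LP neurons and 28 of 45 in Pyr←ORBvl neurons did. *Ncald* first differed by that much from *Pvalb*, the fifth in the Pyr←LP order, and *Necab1* from *Necab2*, the sixth. By mean level the sensors *Hpcal4*, *Ncald* and *Hpca* stood among the first 4 in both types. *Necab1* moved from the fourth to the ninth place. Not all of these places are resolved. *Hpca* did not differ by more than 2 standard errors from *Pvalb* in Pyr←LP neurons or from *Calb1* in Pyr←ORBvl neurons.

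**Figure D5:**
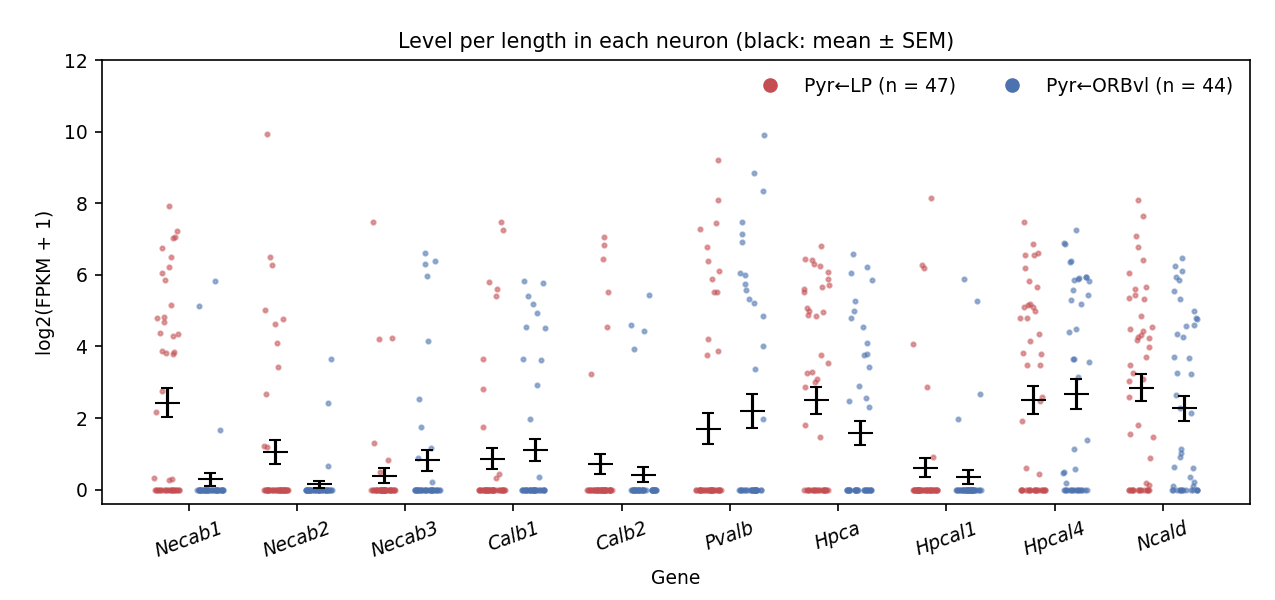
Level per length, log2(FPKM + 1), of each gene (horizontal axis) in 47 Pyr←LP and 44 Pyr←ORBvl neurons, with 1 point per neuron and the mean ± SEM in black. Most points of *Necab3*, *Calb2* and *Hpcal1* lie at 0 in both types, and the means of *Necab1* are 2.43 and 0.29.

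Neurons held counts of a median of 3 of the 10 genes in Pyr←LP neurons (range 0 to 10) and 2 in Pyr←ORBvl neurons (range 0 to 9), and 4 neurons held none. The number rose with the number of detected genes per neuron (rho 0.73 over the 47 Pyr←LP and 0.43 over the 44 Pyr←ORBvl neurons, as a description). Pyr←LP neuron 34, the only one with all 10, also had the most detected genes, 11013, and lies outside the 83. Of the pairs of genes, *Calb2* and *Hpcal1* had the highest rho over the 91 neurons (0.44), with 5 neurons that held both and 10 that held each.

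The other EF-hand genes were taken from a list of 35 sensors, buffers and luminal calcium-binding proteins, and 26 of them passed the filter. 1 was called by edgeR, higher in Pyr←LP neurons, 0 were called in the other direction, and Fisher's exact test and DESeq2 each called 0, while 4 had an unadjusted p under 0.05 in edgeR and 5 in Fisher's exact test. Of all genes tested, edgeR called 2.25%, and 10.2% in edgeR and 8.41% in Fisher's exact test had an unadjusted p under 0.05. The called gene was *Sdf4*, which encodes a calcium-binding protein of the Golgi lumen, with 290.3 CPM in the 44 Pyr←LP and 123 CPM in the 39 Pyr←ORBvl neurons on average (log2 fold change -2.75 ± 0.80, SE, adjusted p = 0.0392), and counts in 30 and 22 of them. The call of *Sdf4* was lost in 10 of 12 alternative analyses and without any of 10 of the 17 prefixes, with -0.76 and an adjusted p of 1.00 without prefix 822 and -1.49 and 0.683 without prefix 830. Of the alternatives that lost it, the prefix block (-2.72), filterByExpr (-2.33) and sums per prefix (-3.55) gave a log2 fold change beyond -2, with standard errors of 1.05, 0.75 and 1.51, and the other 7 gave -1.84 to -1.01. Without any of 7 of those 10 prefixes the log2 fold change stayed between -2.77 and -2.70 and the adjusted p was between 0.05004 and 0.0826. The median log2 fold change was -0.04 over the 26 listed genes, -0.34 over the 5 tested genes above and 0.07 over all genes tested.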

How the data were processed

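Per the study's methods and the labels, the authors used STAR 2.5.3 with GRCm38, removed PCR duplicates and deposited, per neuron, counts of uniquely aligned reads on RefSeq genes, without normalization. They also deposited FPKM values, whose computation is not given in the sources used here. The kit carries no molecular identifiers, so Wilson intervals cover the sampling of neurons only. All columns matched a labelled neuron. The quasi-likelihood test of edgeR 4.0.16 (R 4.3.3) was fitted to the counts with TMM scaling and robust dispersions, for genes that reached 5 counts in 10 neurons or more, and p-values were adjusted over all of them (Benjamini-Hochberg). Standard errors were taken as |log2 fold change| over the root of F, with normal 95% intervals. DESeq2 1.42.0 and limma 3.58.1 were alternatives. Shares were tested with Fisher's exact test (scipy 1.17.1). The tests were tried on simulated data with known changes. Gene models and loops came from GENCODE M21. The members and lists were chosen with earlier results of these data known. Named were all members, *Gm11837*, listed EF-hand genes that were called, and the 5 genes with the highest rho to *Necab1*. Markers named for context and the prefix singled out were chosen after their values were seen.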

Additional observations from a re-analysis of the deposited data

How the results depend on the processing

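Besides *Necab1*, 0 members were called in 11 of 12 alternatives, of which 9 used edgeR and 3 DESeq2 or limma, and in all 17 edgeR analyses that left out 1 recording prefix, and 3 were called by edgeR without a filter on low counts. Fisher's test called 0 in every alternative run. Fold changes are Pyr←ORBvl minus Pyr←LP on the log2 scale. That of *Pvalb* reversed to 1.15 with DESeq2, 0.46 with RLE size factors, 0.63 with all 91 neurons, 1.24 with the prefix as a replicate block, 0.95 with sums per prefix, 0.37 and 0.63 with limma on log2(FPKM + 1) and log2(FPKM + 0.1), and 0.68 with all 91 neurons and the similar pair averaged. That of *Calb1* reversed to 1.18 with the block and to 0.29 and 0.56 with limma, and that of *Hpcal4* to 0.083 with all 91 neurons, 0.19 with the block and 0.028 with the pair averaged. Leaving out 1 prefix moved *Calb1* between -0.92 and 0.44, *Pvalb* between -0.56 and 0.55, *Hpcal4* between -0.27 and 0.48 and *Necab1* between -9.46 and -7.59 around its fitted -7.82, and the share of Pyr←ORBvl neurons with *Necab1* between 0% and 2.94%. For *Necab1* the fitted value was -3.61 with all 91 neurons, -3.70 with the pair averaged, -8.97 with sums per prefix, and -2.32 and -3.83 with limma. A minimum of 5 counts lowered shares in Pyr←ORBvl neurons to 2.56% for *Necab2*, 7.69% for *Necab3*, 2.56% for *Hpcal1*, 41.03% for *Hpcal4* and 46.2% for *Ncald*, that of *Calb2* from 5.13% to 2.56%, and shares in Pyr←LP neurons to 9.09% for *Calb1*, 4.55% for *Necab3* and 6.82% for *Hpcal1*. Thinning to 100000 counts lowered *Necab2* to 11.4% and 3.33%, *Necab3* in Pyr←LP neurons to 5.71%, *Calb1* there to 11.4% and *Calb2* in Pyr←ORBvl neurons to 3.33%. In Pyr←ORBvl neurons the exclusion by TPM left *Necab2* and *Hpcal1* in 2 of 40 neurons each and *Calb2* in 1 of 40, against 9.09% of all 44 for *Calb2*. Leaving out prefix 902 lowered *Hpcal1* and *Calb2* there to 2.70%, and prefix 831 lowered *Calb2* to 2.86%. The causes were not tested.

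Counts were sparse: 4 of the 10 members missed the filter, and the standard errors of the 5 tested were 0.70 to 0.96. Changes of that size were not detectable here, and larger ones may have been missed too. *Sdf4*, at -2.75 ± 0.80 (SE), had an adjusted p of 0.0392 in edgeR. The smallest detectable change was not estimated. Over all genes, edgeR called 170, against 43 with DESeq2, 4950 without a filter, 2 with filterByExpr, 3 with sums per prefix, 49 and 55 with limma, 106 with the pair averaged, and 40, 40 and 50 without prefixes 822, 830 and 831, and Fisher's test called 16, against 31 at a minimum of 5 counts, 9 over every gene with a count and 4 to 16 without 1 prefix. The prefix block changed no call of a member. Averaging the similar pair changes nothing in the 83 neurons, which hold neither of the pair, so it was run on all 91. That analysis, and Fisher's test over every gene with a count, were chosen after seeing the data. The median of all genes tested moved from 0.07 to 0.23 with the block and to -0.11 with detected genes as a covariate, and *Hpca* and *Ncald* stayed below 0 in every analysis.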
